A study of Mus musculus with 50 samples.

Results

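This is an account of how the wound bed of a non-regenerative mouse digit differed between the moment of amputation and 3 days later, across the transcriptome. The members are 6 of the 50 libraries of the series and 6 of its 29 non-regenerative digits, chosen by their labels as the 3 digits taken at 0 hours and the 3 taken at 3 days. Male C57Bl/6 mice aged 9 to 10 weeks lost the tip of the distal phalanx (P3) of hindlimb digit 3, the skin was left to close without sutures, and the study defined a non-regenerative digit as one that lost more than 67% of the phalanx. The opposite foot carried a second amputated digit, and the labels name no allele and no agent in either group. The labels give the share removed as 62%, 62% and 75% in the 0-hour digits and as 68%, 69% and 70% in the 3-day digits, so 2 of the 3 controls lie below the stated limit. Values below are given in that order of digits. The tissue was the piece around the wound bed, which the labels describe as mixed, and it was sequenced as polyadenylated RNA.

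A closing skin wound passes through overlapping phases. Keratinocytes at the margin switch from their resting keratins to a set of stress keratins, loosen and move under the clot, and then rebuild a cornified barrier from proline-rich and late envelope proteins. Blood-borne phagocytes enter along gradients of chemokines, and fibroblasts replace the clot with a provisional matrix that proteases and their inhibitors remodel.

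The libraries held 4747702, 10608244 and 9398455 expected counts at 0 hours and 3488364, 9166748 and 5571519 at 3 days. A count of 0 in the smallest of them allows a share of up to 8.6e-05%, and this limit covers counting error only. The labels carry dates, and these fall into an earlier period (the first 62% digit, and the 68% and 70% digits) and a later one (the second 62% digit, and the 75% and 69% digits). The 69% digit at 3 days stood closer to the 0-hour digits of its own period (Spearman 0.970 and 0.967 across genes) than to the other 3-day digits (0.955 and 0.953). The earlier period thus held 1 of the 3 digits at 0 hours and 2 of the 3 at 3 days. Where a list's count of called genes changed without the 69% digit, or with the date period as a term in the fit, that count is given beside the main one for the lists described below.

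Of 13286 genes tested, 96 passed at an adjusted p-value under 0.05 (edgeR quasi-likelihood test, Benjamini-Hochberg) and a change of over 2-fold between the 2 mean normalized counts after 1 was added to each. These were 74 genes higher at 3 days, 0.557% of those tested, and 22 genes lower, 0.166% of those tested. The 2 directions together made 0.723% of the genes tested. The median log2 fold change was 3.21 among the higher genes and -3.13 among the lower ones, against 0.00 over all genes tested. The 3 digits of 1 time did not overlap the 3 of the other for any of the 96 genes, while over all genes tested 9.06% lay wholly higher and 8.33% wholly lower. Groups that do not overlap fix the direction within each date period, so only the sizes are given: the median log2 ratio was 3.41 within the earlier period and 3.01 within the later one for the higher genes, and -2.93 and -3.53 for the lower ones. Leaving out the 69% digit gave 203 passing genes of 13329 tested, 155 higher and 48 lower, with 88 of the 96 among them. With the date period as a term 303 of 13849 passed, 184 higher and 119 lower, all 96 among them. Calls thus rose over all genes in both fits, and a list's count in either is to be read against that rise. With the date term 25 of 42 uncalled genes that were tracked across the alternatives also passed. With DESeq2 this held for 30 of those 42. A gene said below not to have passed is therefore one that missed the threshold in the edgeR fit of the 6 digits without that term. Whichever 1 of the 6 digits was left out, 39 of the 96 genes still passed, and each of the other 57 lost its call in at least 1 of those fits. Of the epidermal genes these 39 included Krt6b, Krt16, Sprr2a1, Sprr2a2, Sprr2d, Sprr2h, Lce3b, Lce3e, BC100530, Slpi, Klk6, Tmprss11b, Dsc2, Gsdmc, Serpinb3d and Degs2. The inflammatory and matrix genes among them were S100a8, S100a9, Cxcl5, Il33, Il1rl1, Il4ra, Tnc, Mmp3 and P4ha3. The remaining higher genes included Slc16a3, Ndufa4l2, Bcat1, Idi2, Pmaip1, Tubb6, Tmem45b and 2610528A11Rik, and the 5 lower ones included Hbb-bs, Hbb-bt, Scara5 and Abca8a. At an unadjusted p under 0.05 stood 1477 genes, or 11.1%.

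**Figure D1:**
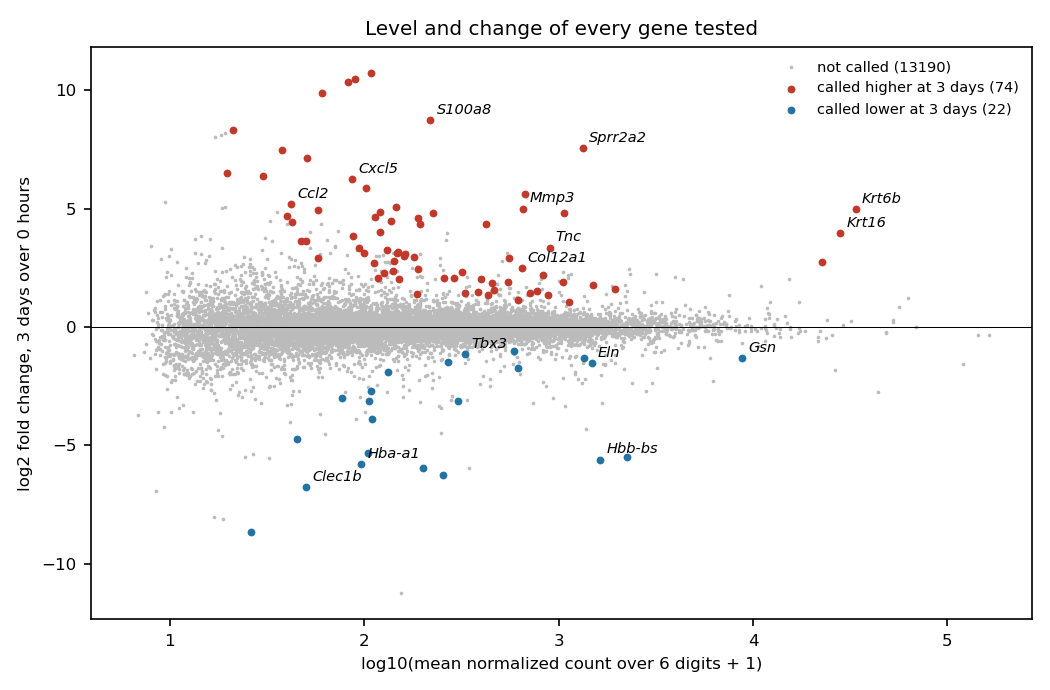
Each point is 1 of 13286 genes tested, with the log10 of its mean normalized count plus 1 over the 6 digits on the x axis and its log2 fold change at 3 days over 0 hours on the y axis. Red points are the 74 genes called higher and blue points the 22 called lower. Among the called genes the keratins Krt6a, Krt6b and Krt16 lie farthest right at more than 4 on the x axis, and genes with no count in 1 group have a fitted y value that depends on the prior count.

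The most abundant change was in the stress keratins of the wound epidermis. Krt6a, Krt6b and Krt16, intermediate filament genes that injured epidermis switches on, together took 0.155%, 0.183% and 0.146% of all expected counts at 0 hours and 1.5%, 3.16% and 1.93% at 3 days. Every 3-day digit was thus far above every 0-hour digit, and the 69% digit was the highest. Krt6b (chromosome 15, 101676023 to 101680287, GRCm38) was measured at 1087, 2995 and 2194 normalized counts at 0 hours and at 38196, 106286 and 52099 at 3 days. Its log2 fold change was 4.97 ± 0.57 (SE) with an adjusted p of 0.00632 (edgeR). Krt16 on chromosome 11, the partner that pairs with the type II keratins, went from 2500, 4114 and 3478 to 30311, 84634 and 43648 (log2 3.97 ± 0.46, adjusted p = 0.00647). Krt6a, the neighbour of Krt6b, began from a higher level of 5978, 6585 and 5143 and reached 30285, 52400 and 35242 (log2 2.74 ± 0.31, adjusted p = 0.00632). Krt6a and Krt6b are near-identical in sequence, so the division of reads between them is uncertain.

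The keratins of resting epidermis did not pass. Krt10, which marks differentiating layers, was at 95134, 201610 and 185423 at 0 hours and at 101409, 148978 and 133787 at 3 days (log2 -0.33, adjusted p = 0.806). Krt5 and Krt14, the basal pair, had log2 fold changes of 0.29 (adjusted p = 0.737) and 1.22 (adjusted p = 0.169). Krt14 nevertheless lay wholly higher, at 33357, 40361 and 38627 against 68356, 119482 and 74610. None of 8 basal and none of 11 differentiated keratinocyte markers passed, with list medians of -0.07 and -0.02, whereas 7 of 12 wound keratinocyte genes passed with a list median of 2.59. In that last list 11 of the 12 lay wholly higher (9.06% over all genes). Krt17 was 1 of the 5 that did not pass, at 1527, 737 and 1118 against 3197, 8808 and 3734 (adjusted p = 0.0768). Without the 69% digit 8 wound genes passed, and with the date period as a term 9 did, Krt17 (adjusted p = 0.0242) among them. Krt14 (adjusted p = 0.00132) and 1 differentiated marker, Casp14, also passed with that term. The summed normalized TPM of the 8 basal markers was 8487 to 9475 at 0 hours and 14021 to 20891 at 3 days. That rise was carried mainly by Krt14, the 1 basal marker that lay wholly higher, at 4960, 5623 and 5431 against 9833, 16374 and 10733. The sum of the 11 differentiated markers was 36198 to 85440 at 0 hours and 43093 to 71905 at 3 days. The summed wound genes went from 2003 to 2744 up to 13979 to 32269. In such bulk tissue fewer cells of a type and less RNA per cell cannot be told apart.

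A second group of epidermal genes was made up of Sprr2 and Lce3 members from the cornified envelope region of chromosome 3. Other envelope genes of that region did not pass. Flg, Lce1a1, Lor and Ivl had log2 fold changes of -0.19, 0.17, 0.58 and 0.89 (adjusted p = 0.927, 0.903, 0.655 and 0.579), and Sprr1a and Sprr1b of 1.71 and 0.58 (adjusted p = 0.145 and 0.674), though Sprr1a passed with the date period as a term. Of the small proline-rich Sprr2 family, whose products are cross-linked into the envelope, Sprr2a1, Sprr2a2, Sprr2d, Sprr2e and Sprr2h all rose. Of the late cornified envelope genes, the Lce3 group that barrier damage is known to induce gave Lce3b, Lce3d, Lce3e and Lce3f. The stretches before the start of some of these genes are shown because their members moved together and hold shared letters. The 3 Sprr2 stretches below span positions -210 to -1 before the RefSeq start (GRCm38.p6, plus strand), at chr3:92338930-92339139, chr3:92351933-92352142 and chr3:92385475-92385684. Capitals mark TGANTCA, the letters of an AP-1 element, and TATAAA.
Sprr2d: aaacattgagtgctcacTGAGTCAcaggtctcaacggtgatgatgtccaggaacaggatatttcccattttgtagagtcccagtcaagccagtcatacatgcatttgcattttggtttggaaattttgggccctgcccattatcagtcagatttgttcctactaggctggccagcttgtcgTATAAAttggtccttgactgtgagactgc
Sprr2e: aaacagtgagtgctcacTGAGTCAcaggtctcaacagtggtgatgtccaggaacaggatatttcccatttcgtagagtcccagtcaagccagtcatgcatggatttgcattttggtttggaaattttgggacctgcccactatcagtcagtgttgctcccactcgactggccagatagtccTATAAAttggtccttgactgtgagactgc
Sprr2h: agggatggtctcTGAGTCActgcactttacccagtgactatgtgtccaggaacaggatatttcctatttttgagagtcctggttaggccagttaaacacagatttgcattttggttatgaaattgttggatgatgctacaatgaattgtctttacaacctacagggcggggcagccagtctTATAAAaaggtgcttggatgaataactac

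The Sprr2d and Sprr2e stretches were 91.9% identical and both were more distant from Sprr2h, at 67.6% and 67.3%. TGANTCA, which reads the same on both strands, began at -193, -193 and -198, and TATAAA began at -29 in all 3. Over the 250 bases before the start, TGANTCA stood in 6 of the 49 higher genes that had a window, in 0 of 16 lower genes and in 7.82% of all 27025 gene symbols. TATAAA, sought on both strands, stood in 18 of 49, in 5 of 16 and in 14.3% of symbols. These matches describe letters only.

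The 4 Lce3 stretches span -90 to -1, at chr3:92932889-92932978, chr3:92957300-92957389, chr3:92966971-92967060 and chr3:92992127-92992216 on the plus strand. Capitals mark GTTGTGAAAGCA and AGGATAAAAG, the 2 longest runs that all 4 stretches share.
Lce3b: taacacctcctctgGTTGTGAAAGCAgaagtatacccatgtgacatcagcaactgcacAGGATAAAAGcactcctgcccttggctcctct
Lce3d: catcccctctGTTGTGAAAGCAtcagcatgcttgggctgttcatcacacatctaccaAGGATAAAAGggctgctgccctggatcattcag
Lce3e: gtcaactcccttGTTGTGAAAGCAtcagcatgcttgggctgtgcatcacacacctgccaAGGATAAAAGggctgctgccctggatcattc
Lce3f: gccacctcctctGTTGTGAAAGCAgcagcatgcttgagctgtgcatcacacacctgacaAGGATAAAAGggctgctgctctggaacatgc

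Identity between pairs of these stretches ran from 66.3% (Lce3b and Lce3d) to 89.2% (Lce3d and Lce3e). On either strand, GTTGTGAAAGCA stood before 4 symbols of 27025 (0.0148%) and AGGATAAAAG before 29 (0.107%). Among the 49 higher genes with a window, the 4 Lce3 genes were the ones that held either run. The runs were taken from these 4 stretches, so their presence there was fixed in advance. These matches too describe letters only.

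Sprr2a2 had the smallest adjusted p of all genes tested, 0.000185. It stood at 19.5, 12 and 11 normalized counts at 0 hours and at 3295, 2633 and 1993 at 3 days, a log2 fold change of 7.57 ± 0.36. Its neighbour Sprr2a1 had no count in any 0-hour digit and 342, 185 and 114 normalized counts at 3 days, at least 54.8-fold higher against a floor of 3 counts in the smallest 0-hour library (adjusted p = 0.00632). The 2 genes overlap on the same strand and are near-identical, so their separate values are uncertain. Sprr2a3, named here after its values were seen, was also at 0 in every 0-hour digit, and it did not pass (adjusted p = 0.0528).

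Sprr2d went from 16.9, 4.93 and 5.51 to 285, 175 and 190 (log2 4.66 ± 0.50, adjusted p = 0.00571). Sprr2h, already present at 58.5, 67.7 and 47.2, reached 368, 222 and 360 (log2 2.45 ± 0.29, adjusted p = 0.00705). Of the 5 called Sprr2 genes Sprr2h had the highest normalized counts at 0 hours and Sprr2a2 at 3 days. Sprr2e had 1 count in all at 0 hours and 35.9, 33.6 and 41.4 normalized counts at 3 days, a ratio of 127 with a counting interval of 22.2 to 5050 (adjusted p = 0.0152).

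Lce3e was at 24.7, 55.0 and 37.8 and then at 679, 409 and 1328 (log2 4.33 ± 0.50, adjusted p = 0.00632), the highest normalized counts of the 4 called Lce3 genes at 3 days, while at 0 hours Lce3f was as high, at 36.4, 37.4 and 48.8. Lce3b had no count at 0 hours and 102, 67.2 and 190 at 3 days, at least 30.7-fold higher (adjusted p = 0.00966). Lce3d and Lce3f rose by 4.88 and 2.96 on the log2 scale (adjusted p = 0.0417 and 0.0223). In all 4 genes the 70% digit was the highest of the 3-day digits, and the 69% digit was the lowest except for Lce3d.

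Protease inhibitors and proteases of the surface layers moved with them. The stefin A genes BC100530 and Stfa3, cystatin-type inhibitors of cysteine proteases, lie on chromosome 16. BC100530 was at 96.2, 53.6 and 71.6 and then at 2074, 1577 and 2509 (log2 4.81 ± 0.31, adjusted p = 0.000749). Slpi, the secretory leukocyte protease inhibitor, was at 6.5, 6.34 and 11.8 and then at 113, 290 and 439 (log2 5.06 ± 0.57, adjusted p = 0.00632). The groups did not overlap for either inhibitor. The kallikrein-related peptidase Klk6 rose by 3.84 and Klk10 by 1.38 on the log2 scale (adjusted p = 0.00571 and 0.027), and the membrane serine protease Tmprss11b by 5.86 (adjusted p = 0.00571). Smaller rises were seen in the inhibitor gene Serpinb1a (log2 2.06), the gasdermin gene Gsdmc (1.90) and the desmosomal cadherin Dsc2 (2.20). Serpinb3d rose from 135, 182 and 154 to 781, 575 and 555 (adjusted p = 0.00571). Reads of the stefin and Serpinb families may be shared between close copies.

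Genes of the moving epithelial edge were a smaller group, and 1 of 12 migration genes passed, with a list median of 0.66 (2 without the 69% digit, 3 with the date period as a term). Of the 12, 5 lay wholly higher (9.06% over all genes). Outside that list, podoplanin (Pdpn), a membrane glycoprotein of migrating keratinocytes and lymphatic endothelium, rose by 2.78 ± 0.43 (adjusted p = 0.0281). None of 9 EGFR ligand and receptor genes passed (list median 0.29), and 1, the ligand gene Tgfa, did without the 69% digit or with the date period as a term.

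**Figure D2:**
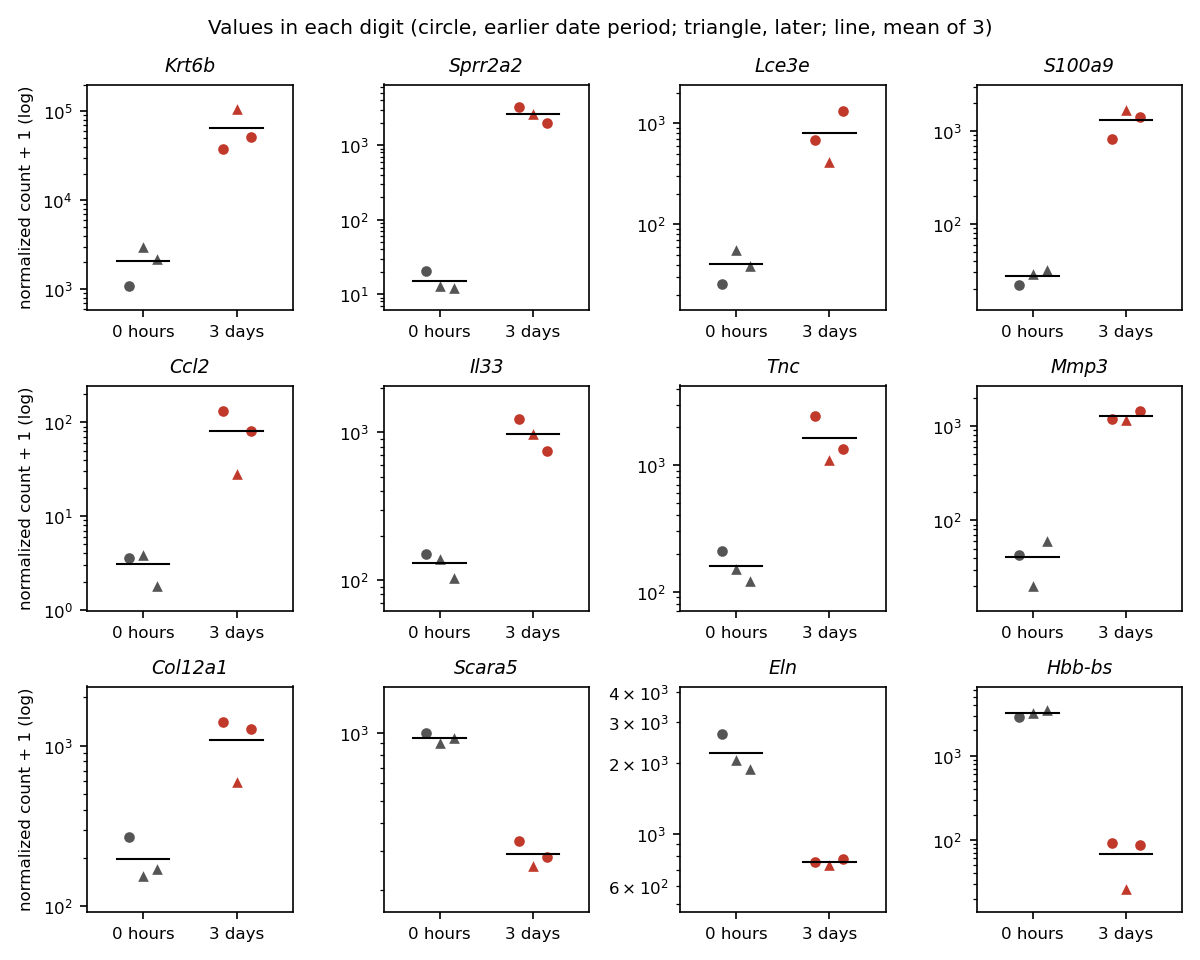
Each panel shows 1 gene in 6 digits, with normalized count plus 1 on a log axis. Circles are digits of the earlier date period, triangles those of the later one, and the line is the mean of 3. The 3-day digits lie wholly above the 0-hour digits in the first 9 panels, as for Mmp3 with 1174 to 1450 against 19.0 to 59.0, and wholly below in Scara5, Eln and Hbb-bs.

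The inflammatory genes that rose were alarmins, chemokines and receptors of myeloid cells. S100a8 and S100a9, which encode the calcium-binding subunits of calprotectin, lie together on chromosome 3. S100a9 was at 20.8, 28.2 and 30.7 and then at 815, 1710 and 1421 (log2 5.61 ± 0.35, adjusted p = 0.000749). S100a8 had 3 counts in all at 0 hours and was at 432, 160 and 711 at 3 days, a ratio of 455 with a counting interval of 155 to 2209 (adjusted p = 0.00571). Calprotectin is made by neutrophils and also by stressed keratinocytes, and the rest of the neutrophil list is given beside it. Of its 12 genes, 6 passed the filter on low counts, and S100a8 and S100a9 were the 2 called. Trem1 lay wholly higher (6.5, 0 and 2.36 against 111, 18.5 and 51.1) but did not pass (adjusted p = 0.134), and Cxcr2, the neutrophil chemokine receptor, was at 39.0, 72.6 and 48.0 against 56.6, 55.4 and 82.7 (adjusted p = 0.831). The granule genes Camp and Ngp were at 0 in all 3-day digits, and Cxcr1 was at 0 in all 6. The summed normalized TPM of the 12 genes, 21.2 to 31.2 at 0 hours and 656 to 1117 at 3 days, was carried mainly by the calprotectin pair.

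Of 6 tested neutrophil-attracting chemokines, Cxcl3 and Cxcl5 rose. Cxcl5 was at 5.2, 0.705 and 1.57 and then at 98.1, 140 and 268 (log2 6.24 ± 0.68, adjusted p = 0.00571), and Cxcl3 had no count at 0 hours and 30.2, 38.6 and 51.1 at 3 days, at least 10.2-fold higher (adjusted p = 0.0265). Cxcl3 still passed when the first 62% digit was left out, and not when any other was. With the date period as a term 3 of the 6 were called higher (Cxcl2, Cxcl3 and Cxcl5) and 2 lower (Ppbp and Pf4). Ppbp is described below with the platelet genes. Ccl2, the ligand that draws CCR2-bearing monocytes, was at 2.6, 2.82 and 0.787 and then at 132, 26.9 and 80.3 (log2 5.19 ± 0.80, adjusted p = 0.027). It was the 1 of 8 CC chemokine and receptor genes to pass (list median 2.30), and 5 of the 8 lay wholly higher (9.06% over all genes). Without the 69% digit 4 of 8 passed, and with the date period as a term 4 of 9 did. Ccl7, the neighbour of Ccl2, was at 37.7, 7.05 and 9.45 against 123, 194 and 170 and did not pass (adjusted p = 0.0585), though it did with that term (adjusted p = 0.0163).

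The alarmin interleukin Il33 and its receptor Il1rl1 (ST2) both rose. Il33 on chromosome 19 was at 150, 139 and 103 and then at 1223, 970 and 747 (log2 2.91 ± 0.26, adjusted p = 0.00399). Il1rl1 was at 29.9, 9.87 and 16.5 and then at 527, 273 and 305 (log2 4.34 ± 0.46, adjusted p = 0.00571). The 2 chains of the type II receptor for IL-4 and IL-13 rose as well, Il4ra by 1.86 ± 0.20 (adjusted p = 0.00571) and Il13ra1 by 1.06 ± 0.18 (adjusted p = 0.0439). With Il1rl1 these were the 3 of 11 receptor genes that passed in that list, whose median was 0.22, and 4 passed without the 69% digit. Among 10 interleukins and colony-stimulating factors Il33 was the 1 that passed. Il1b, an early inflammatory cytokine, was at 74.1, 7.05 and 19.7 against 770, 150 and 578 (adjusted p = 0.0986), and passed with the date period as a term (adjusted p = 0.00114).

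C-type lectin receptors of myeloid cells, which bind microbial and cell-death ligands, formed a cluster on chromosome 6. Clec4e had 1 count in all at 0 hours and was at 134, 23.5 and 63.3 at 3 days (ratio 205, counting interval 36.3 to 8166, adjusted p = 0.0208). Clec4n rose by 4.69 ± 0.58 and Clec4d by 3.24 ± 0.51 on the log2 scale (adjusted p = 0.0091 and 0.0314). Acod1, whose enzyme makes itaconate in activated macrophages, had 2 counts at 0 hours and was at 206, 26 and 64.5 at 3 days (ratio 131, interval 35.9 to 1092, adjusted p = 0.0357). In Clec4e, Acod1 and Ccl2 alike the 68% digit was the highest and the 69% digit the lowest.

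General macrophage markers did not pass: 0 of 12 tested, with a list median of 0.90 and a summed normalized TPM of 170 to 332 at 0 hours and 219 to 749 at 3 days. Of the 12, 3 lay wholly higher (9.06% over all genes). Lyz2 was at 820, 464 and 429 against 1740, 580 and 2106 (adjusted p = 0.303), and C1qb at 98.8, 72.6 and 74.0 against 259, 99.1 and 264 (adjusted p = 0.211). In both, the 69% digit lay near the 0-hour level. Without it 4 of 13 macrophage markers passed, all higher, among them C1qb (log2 1.68, adjusted p = 0.0247) and Lyz2 (1.75, adjusted p = 0.0424), as did Il1b (4.42, adjusted p = 0.0413), Ccr1 (3.58, adjusted p = 0.0225) and Ccr2 (3.37, adjusted p = 0.0271). With the date period as a term 1 of 13 passed, Cd14. Of 5 tested alternative activation genes 0 passed, with a list median of 0.60. Arg1, an arginase gene of that list, was at 308, 883 and 949 against 3463, 2796 and 5400 with all 6 digits (adjusted p = 0.0585). It was the 1 gene of the list to pass without the 69% digit (adjusted p = 0.0453) and with the date period as a term (adjusted p = 0.0233). Cd163, another member, lay wholly lower, at 11.1, 15.9 and 15.7 normalized TPM against 6.06, 6.09 and 10.4. Of the T cell, B cell and mast cell lists no member passed, nor did any of 10 interferon-stimulated, 11 complement or 6 MHC class II genes. The interferon-stimulated list had a median of 1.41, and no member lay wholly higher. Its summed normalized TPM was 43 to 73.9 at 0 hours and 39 to 432 at 3 days, with a 3-day median of 50. In each of the 10 genes the first 3-day digit was the highest at 3 days. Ifit3 was at 4.6, 3.67 and 5.45 normalized TPM against 82.1, 6.13 and 4.45. Of the complement genes 1 passed without the 69% digit and 2 with the date period as a term.

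The matrix group combined glycoproteins of the provisional matrix with enzymes that cut or modify it. Tnc, the gene of tenascin-C, was at 209, 149 and 120 and then at 2448, 1102 and 1353 (log2 3.36 ± 0.37, adjusted p = 0.00571). Cthrc1, a secreted protein of activated fibroblasts, was at 40.3, 21.1 and 27.6 and then at 351, 157 and 288 (log2 3.17 ± 0.40, adjusted p = 0.00959). Tgfbi, a matrix adhesion protein, went from 720, 629 and 694 to 2859, 1486 and 2588 (log2 1.76 ± 0.27, adjusted p = 0.027). These were 3 of 17 matricellular genes, whose list median was 1.24, and 7 of the 17 lay wholly higher (9.06% over all genes). The count of calls was 6 without the 69% digit and 7 with the date period as a term. In each of the 3 the 69% digit was the lowest of the 3-day digits and still above every 0-hour digit.

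Of the 18 collagen genes listed, Col12a1 alone passed, and Col4a6, which is not on the list, is described with the lower genes. This fibril-associated collagen was at 269, 152 and 169 and then at 1396, 597 and 1278 (log2 2.47 ± 0.37, adjusted p = 0.0232). The main fibrillar genes did not, with Col1a1 at 6777, 3837 and 4808 against 27299, 7365 and 15992 (adjusted p = 0.185) and Col3a1 at 12998, 8712 and 11537 against 26012, 14669 and 29182 (adjusted p = 0.233). Both were nevertheless among the 7 of the 18 that lay wholly higher at 3 days (9.06% over all genes). P4ha3, a subunit of collagen prolyl 4-hydroxylase, rose from 16.9, 14.1 and 18.9 to 204, 167 and 139 (log2 3.34 ± 0.31, adjusted p = 0.00517), the 1 of 17 collagen processing genes to pass. Of those 17 genes 7 lay wholly higher. Lox, whose enzyme starts collagen cross-linking, was at 164, 123 and 98.4 against 1329, 225 and 1111 (adjusted p = 0.088). Without the 69% digit 5 of 18 collagen genes and 3 of 17 processing genes passed, among them Col1a1 (log2 2.07, adjusted p = 0.0392) and Lox (3.25, adjusted p = 0.00282). With the date period as a term the counts were 2 of 18 and 3 of 17.

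Matrix proteases and their inhibitors gave 4 of 16 genes, with a list median of 1.52, and 8 of the 16 lay wholly higher (9.06% over all genes). Stromelysin-1 (Mmp3) was at 41.6, 19.0 and 59.0 and then at 1191, 1174 and 1450 (log2 5.0 ± 0.40, adjusted p = 0.00271). The 3-day digits lay close to each other, the 69% digit included. The 60 bases before its RefSeq start (GRCm38.p6, chr9:7445762-7445821, plus strand) are shown because TGANTCA, in capitals, lies at -46 and TATAAA at -7.
Mmp3: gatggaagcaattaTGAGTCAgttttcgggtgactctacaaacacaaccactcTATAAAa

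Timp1, the inhibitor of such metalloproteases, was at 26, 5.64 and 5.51 and then at 309, 151 and 316 (log2 4.50 ± 0.63, adjusted p = 0.0174). It lies within Syn1 on the other strand. The membrane proteases Adam12 and Adam8 rose by 3.12 ± 0.51 and 3.08 ± 0.45 (adjusted p = 0.0356 and 0.0223). Mmp9, the gelatinase of phagocytes and osteoclasts, was at 114, 33.1 and 29.1 against 653, 152 and 487 and did not pass (adjusted p = 0.114). Without the 69% digit 6 of the 16 passed, and with the date period as a term 6 did, Mmp9 among them both times (adjusted p = 0.0413 and 0.000899).

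A metabolic group rose with fewer members. Slc16a3, the lactate exporter MCT4, was at 7.8, 13.4 and 18.9 and then at 268, 152 and 257 (log2 4.02 ± 0.40, adjusted p = 0.00571). Slc2a1, the glucose transporter GLUT1, was at 619, 405 and 451 and then at 1117, 1344 and 1323 (log2 1.36 ± 0.22, adjusted p = 0.0329). These 2 transporters were the ones that passed among 21 glycolysis and hypoxia genes, whose list median was 0.35. Of the 21, 9 lay wholly higher (9.06% over all genes), and 4 passed without the 69% digit or with the date period as a term. The glycolytic enzymes of the pathway did not pass. Ndufa4l2, a mitochondrial target of hypoxia signalling, rose from 104, 127 and 85.8 to 510, 423 and 658 (log2 2.33 ± 0.25, adjusted p = 0.00571), while 0 of 22 respiratory chain genes passed. Bcat1, the cytosolic branched-chain aminotransferase, rose by 3.61 ± 0.40 and apelin (Apln), a vascular peptide, by 3.63 ± 0.49 (adjusted p = 0.00632 and 0.0144).

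Idi2, a homologue of isopentenyl diphosphate isomerase, had no count at 0 hours and 111, 133 and 245 at 3 days, at least 41.8-fold higher (adjusted p = 0.00571). Gm9745, the neighbouring gene model on chromosome 13 (8941575 to 8948231, beside Idi2 at 8952863 to 8960945), had 2 counts at 0 hours and 75.5, 44.5 and 52.3 at 3 days, a ratio of 92.5 with an interval of 25.1 to 772 (adjusted p = 0.0152). Both neighbours were near absent in the fresh wound and present in every 3-day digit. Genes of lipid synthesis gave 0 of 15, with 7 lying wholly lower (8.33% over all genes) and a list median of -0.43.

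Some of the other genes that rose are known from the cytoskeleton and the lysosome. No list was made of the first. Of 16 phagocyte and lysosome genes tested 0 passed, with a list median of 0.57, and 7 lay wholly higher (9.06% over all genes). Of that list 3 passed without the 69% digit and 2 with the date period as a term. The actin-bundling gene Fscn1, the tubulin Tubb6, the coactosin gene Cotl1 and the membrane-cytoskeleton genes Marcks and Basp1 rose by 1.47 to 2.69 on the log2 scale. Tubb6 was the steadiest of them, at 225, 249 and 226 and then at 687, 710 and 677 (log2 1.57 ± 0.17, adjusted p = 0.00571). The lysosomal proteases Ctsc and Lgmn, which are not on that list, rose by 1.90 and 1.35 (adjusted p = 0.0236 and 0.027). Pmaip1, which encodes the BH3-only protein NOXA, rose by 2.99 ± 0.31 (adjusted p = 0.00571).

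Among the called genes with a mean of at least 50 normalized counts at 0 hours, the gene model Gm43720 had the largest fitted fall and genes of blood cells came next. Gm43720, which overlaps Gal3st4 and Gpc2 on the same strand, was at 22.1, 80.4 and 48.8 and then at 0 in each 3-day digit, at least 8.91-fold lower (adjusted p = 0.047). All 6 tested red blood cell markers fell, with a list median of -5.54, and their summed normalized TPM went from 3182 to 4323 at 0 hours to 19.4 to 127 at 3 days. Hbb-bs, a beta-globin gene on chromosome 7, was at 2892, 3267 and 3483 and then at 90.6, 25.2 and 86.4 (log2 -5.60 ± 0.49, adjusted p = 0.00399). Hba-a2, an alpha-globin gene on chromosome 11, was at 5867, 4010 and 3269 and then at 143, 6.72 and 150 (log2 -5.48 ± 0.92, adjusted p = 0.0429). Alas2, the erythroid enzyme of haem synthesis, was at 198, 205 and 202 and then at 17.0, 0.84 and 1.22 (log2 -5.33 ± 0.78, adjusted p = 0.0213). The 0-hour digits lay close together in Hbb-bs and Alas2 and farther apart in Hba-a2, and the 69% digit was the lowest at 3 days in Hbb-bs, Hba-a2 and Alas2. Hba-a1 and Hbb-bt fell by 5.80 and 6.27 on the log2 scale (adjusted p = 0.017 and 0.00729), though reads of the near-identical pairs may be split between copies. The 4 globin genes took 0.15%, 0.108% and 0.102% of all expected counts at 0 hours and 0.00355%, 0.000535% and 0.00373% at 3 days.

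Platelet genes were uneven among the 0-hour digits. Clec1b, the platelet receptor CLEC-2, was at 208, 52.9 and 32.3 at 0 hours and had 2 counts in all at 3 days, 101-fold lower with a counting interval of 27.8 to 842 (adjusted p = 0.0426). Nrgn, a calmodulin-binding protein gene also expressed in platelets, was at 896, 186 and 98.4 and then at 9.44, 8.40 and 1.22 (log2 -5.94 ± 1.02, adjusted p = 0.047). Ppbp, the platelet basic protein, was at 1621, 263 and 143 and then at 5.66, 3.36 and 23.1 without passing (adjusted p = 0.0631). Tubb1, the platelet tubulin, named after its values were seen, was at 700, 129 and 87.4 and at 0 in each 3-day digit (adjusted p = 0.0585). In all 4 genes the first 62% digit was the highest, and the groups did not overlap. Blood cell genes fell beside every other result of this comparison, and their part in those results was not tested.

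The other lower genes had varied roles, and some are known from the matrix or stroma of connective tissue. Elastin (Eln, chromosome 5) was at 2645, 2061 and 1891 and then at 757, 737 and 778 (log2 -1.54 ± 0.20, adjusted p = 0.014). Ltbp4, a binding protein needed for elastic fibre assembly, was at 1895, 1972 and 1890 and then at 889, 681 and 763 (log2 -1.30 ± 0.19, adjusted p = 0.0213). Scara5, a ferritin receptor of stromal cells, was at 1000, 901 and 944 and then at 330, 255 and 280 (log2 -1.72 ± 0.18, adjusted p = 0.00571). For each of these 3 genes the 3-day digits lay close together and well below the lowest 0-hour digit.

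The lipid transporters Abca8a and Abca8b, neighbours on chromosome 11, fell by 2.69 ± 0.31 and 1.89 ± 0.31 (adjusted p = 0.00647 and 0.0404). Myoc, a secreted glycoprotein, fell by 3.13 ± 0.48, and Inmt, an amine methyltransferase, by 4.75 ± 0.64 (adjusted p = 0.0268 and 0.0144). Gsn, the actin-severing gelsolin, was the most abundant of the lower genes at 11725, 12118 and 13879 against 5386, 4928 and 4821 (log2 -1.32 ± 0.22, adjusted p = 0.0383). The basement membrane collagen Col4a6 and the T-box factor Tbx3 fell by 1.49 and 1.14 (adjusted p = 0.0429 and 0.0426), and the adducin gene Add3 went from 822, 725 and 814 to 408, 345 and 422 (adjusted p = 0.0473). Scg3, a secretogranin gene, and Fam46c fell by 3.01 ± 0.47 and 3.12 ± 0.44 (adjusted p = 0.0289 and 0.0184). General fibroblast markers gave 0 of 13 with a list median of -0.02 (1 higher and 1 lower with the date period as a term) and a summed normalized TPM of 621 to 1273 against 442 to 1119.

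**Figure D3:**
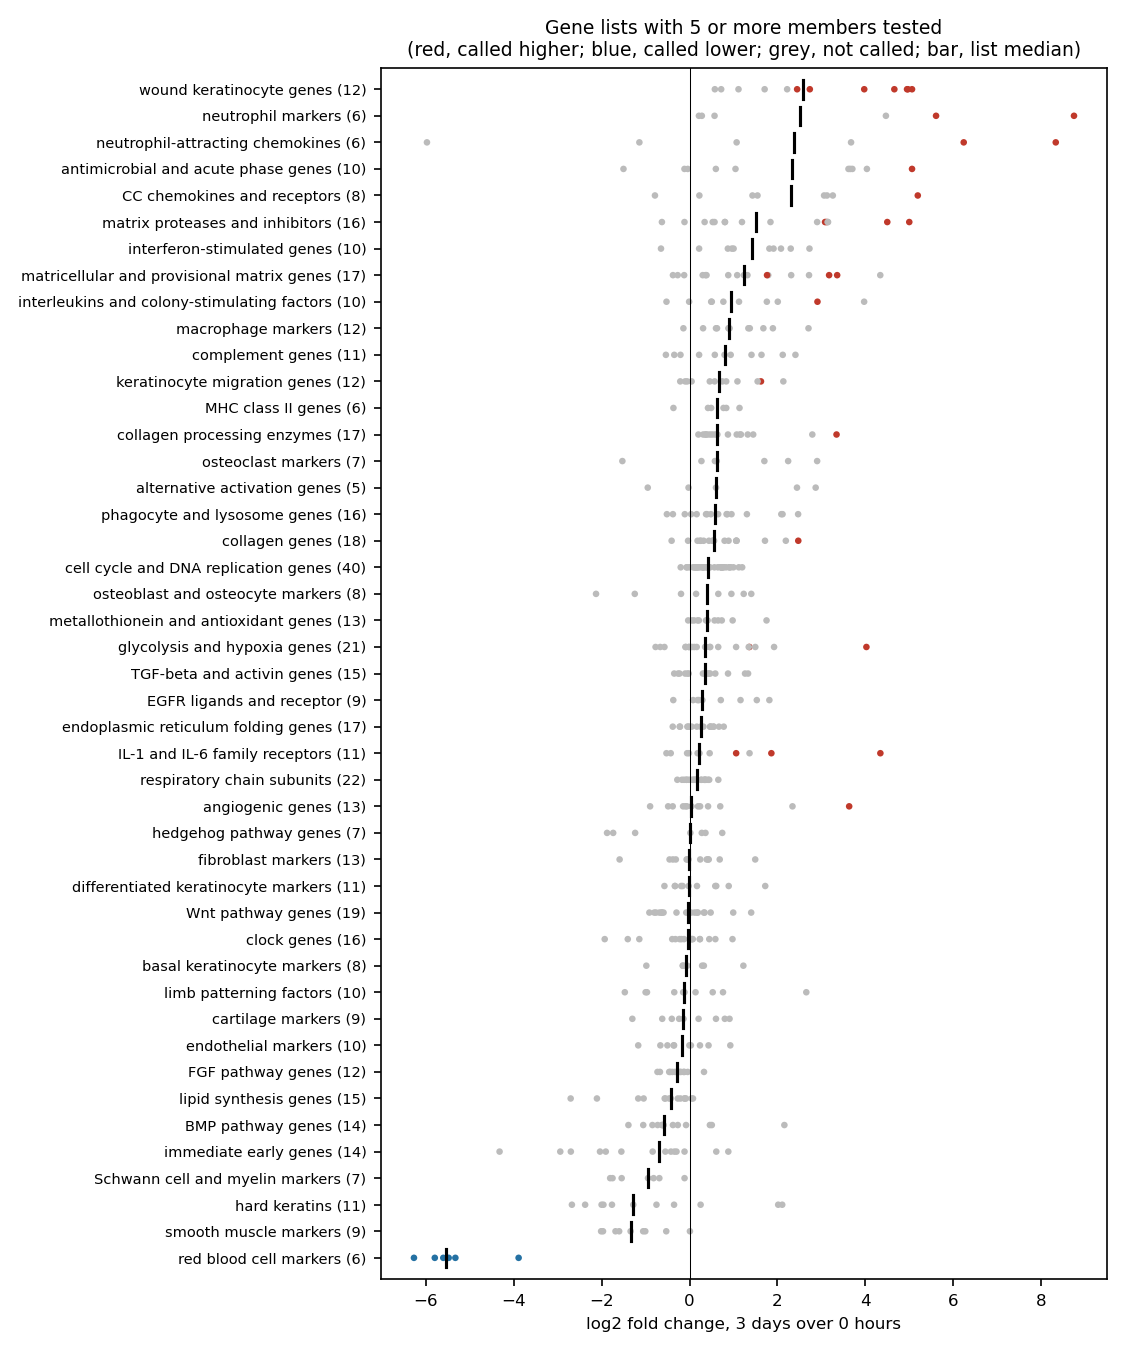
Each row is 1 gene list with 5 or more members tested, with the number tested in brackets, ordered by the list median. Points are the log2 fold changes of the members at 3 days over 0 hours on the x axis, red where called higher, blue where called lower and grey where not called, and the bar is the median. Wound keratinocyte genes lie at the top with a median of 2.59, and red blood cell markers at the bottom with -5.54.

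Several groups that a healing digit might involve had no called gene with all 6 digits and no period term. None of 40 cell cycle and replication genes was called, yet 16 lay wholly higher and none wholly lower, with a list median of 0.43 against 0.00 over all genes and the 9.06% of all genes that lay wholly higher, and the count of 0 was the same without the 69% digit and with the date period as a term. Rrm2, a subunit of ribonucleotide reductase, came nearest with a log2 fold change of 0.94 (adjusted p = 0.0585). Of 14 immediate early genes 0 were called, 5 lay wholly lower (8.33% over all genes) and the median was -0.70. Without the 69% digit 3 of them were called lower, Jun (log2 -2.02, adjusted p = 0.0313), Jund (-1.20, adjusted p = 0.0284) and Ier2 (-1.23, adjusted p = 0.035), with a list median of -1.21. With the date period as a term 4 were called lower, Fos (adjusted p = 0.0167) and Fosb (adjusted p = 0.00387) among them. Fosb, an AP-1 subunit that tissue handling can also induce, was at 6096, 1131 and 635 and then at 159, 113 and 123 (log2 -4.32 ± 0.82, adjusted p = 0.0638), and Fos was at 11057, 2531 and 1089 against 900, 544 and 813 (adjusted p = 0.194). The first 62% digit, the one with the most platelet RNA, was again the highest in both.

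Skeletal lists had no call in the same fit. Among 7 osteoclast markers none passed, though Ctsk, the main collagenase of osteoclasts, was at 235, 121 and 116 against 485, 412 and 628 (adjusted p = 0.0619). Without the 69% digit Mmp9 and Car2 passed, and with the date period as a term 3 of 8 were called higher, Ctsk (adjusted p = 0.00455) included, and 1 lower. None of 8 osteoblast and osteocyte or 9 cartilage markers passed, while 1 of 10 osteoblast markers, Ibsp, passed without the 69% digit and 1 cartilage marker, Chad, was called lower with the date period as a term. Smooth muscle markers gave 0 of 9 with a median of -1.34 and 4 wholly lower (8.33% over all genes). Schwann cell markers gave 0 of 7 with a median of -0.95 and 5 wholly lower. With the date period as a term 3 smooth muscle markers and 1 Schwann cell marker were called lower. Without the 69% digit 1 Schwann cell marker was. S100b, a glial calcium-binding protein, was at 246, 129 and 310 against 66.0, 42.8 and 87.6 (adjusted p = 0.104). Of signalling lists, 0 of 15 TGF-beta and activin, 0 of 14 BMP, 0 of 19 Wnt, 0 of 12 FGF and 0 of 7 hedgehog genes passed, with medians of 0.34, -0.59, -0.03, -0.28 and 0.02, and the counts stayed at 0 in both alternatives. Bmp2, a ligand tied to digit tip regrowth, was at 94.9, 96.6 and 98.4 against 106, 77.3 and 92.5 (log2 -0.08 ± 0.26, adjusted p = 0.938). Arntl, a core clock gene, was at 468, 311 and 303 against 115, 126 and 165 (adjusted p = 0.0585), and 0 of 16 clock genes passed (2 lower, Arntl included, with the date period as a term).

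**Figure D4:**
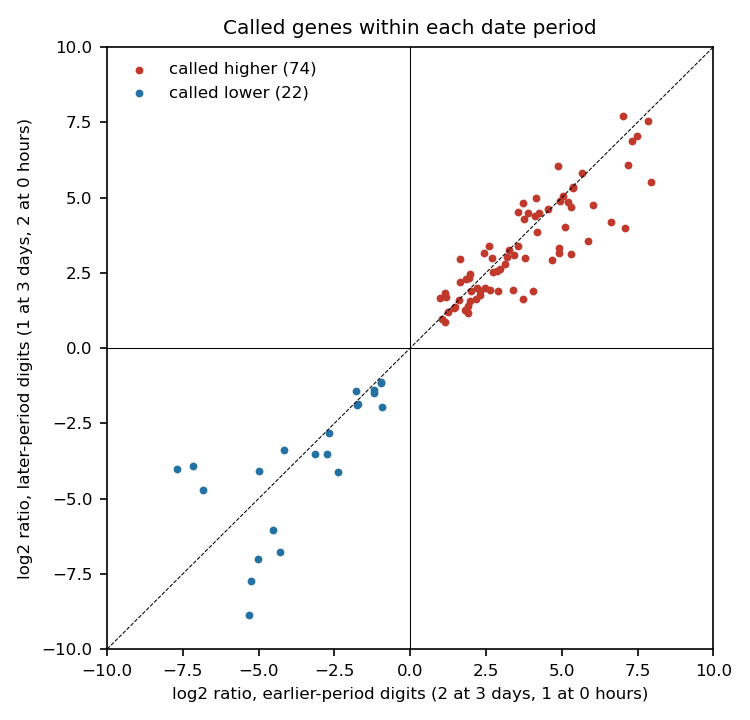
Each point is 1 of the 96 called genes, with the log2 ratio of mean normalized count plus 1 at 3 days over 0 hours among digits of the earlier date period on the x axis and of the later period on the y axis. The dashed line marks equal ratios. The 74 red points (median 3.41 and 3.01) lie above 0 on both axes and the 22 blue points (-2.93 and -3.53) below, which the lack of overlap between the groups fixes in advance.

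The neighbouring times place 3 days within the course of healing. These comparisons share the 3-day digits with the one above, so their values are given side by side and not as a separate line of evidence, and the genes were picked after their values were seen. Against the 3 digits at 24 hours, 358 of 12974 genes tested passed, 164 higher (1.26%) and 194 lower (1.5%) at 3 days, or 2.76% in all. Of the 74 genes called higher than at 0 hours, 14 were lower and 6 higher than at 24 hours, and the rest were not called. Their median log2 fold change against 24 hours was -0.39. Examples of the lower ones come first. Mmp3 was at 682 to 1112 normalized TPM at 24 hours and at 151 to 196 at 3 days (log2 -2.49 ± 0.24, adjusted p = 0.0111). Krt6a was at 11849 to 13376 and then at 3262 to 5377 (log2 -1.59 ± 0.26, adjusted p = 0.0187), and Slpi and Il1rl1 fell by 2.29 and 2.04 on the log2 scale (adjusted p = 0.0279 and 0.0171). Krt6b, by contrast, was at 8793 to 11099 and at 4171 to 11055, and the ranges overlapped (adjusted p = 0.475).

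A second set was higher at 3 days than at 24 hours. Cthrc1 was at 2.77 to 11.1 normalized TPM at 24 hours and at 32.3 to 74.3 at 3 days (log2 2.90 ± 0.50, adjusted p = 0.0204). Col12a1 was at 6.5 to 14.9 and then at 37.2 to 65.3 (adjusted p = 0.0168), and Sprr2a2 at 186 to 249 and then at 694 to 1147 (log2 2.04 ± 0.23, adjusted p = 0.0111). Ndufa4l2 and Idi2 rose by 2.50 and 7.28 (adjusted p = 0.0351 and 0.0111). Eln, which was below its 0-hour level at both times, was at 21 to 24.7 and then at 47.8 to 49.1 (log2 1.14 ± 0.18, adjusted p = 0.0168). The calls against 24 hours rested on single libraries, since 0 genes passed without the 73% digit at 24 hours and 2 passed without the 63% one, with 2000 and 1727 at an unadjusted p under 0.05.

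Against the 5 digits at 7 days, 0 of 12945 genes passed with edgeR, with 167 at an unadjusted p under 0.05 (1.29%), and DESeq2 called 13. Cthrc1 was at 285, 167, 235, 518 and 245 normalized TPM in the 7-day digits of 63%, 65%, 72%, 73% and 75%, each above the 3-day range of 32.3 to 74.3 (log2 2.38, adjusted p = 1). Krt6b was at 1894, 989, 3649, 201 and 3303, each below the 3-day range of 4171 to 11055 (log2 -1.75, adjusted p = 1). The ranges of these 2 genes did not overlap, and neither gene passed. By 21 days Krt6b was at 153 to 811, S100a8 at 0 to 10.5 and Sprr2a2 at 1.84 to 41.2 normalized TPM, while Col12a1 was at 97.9 to 181 and Cthrc1 at 130 to 384.

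**Figure D5:**
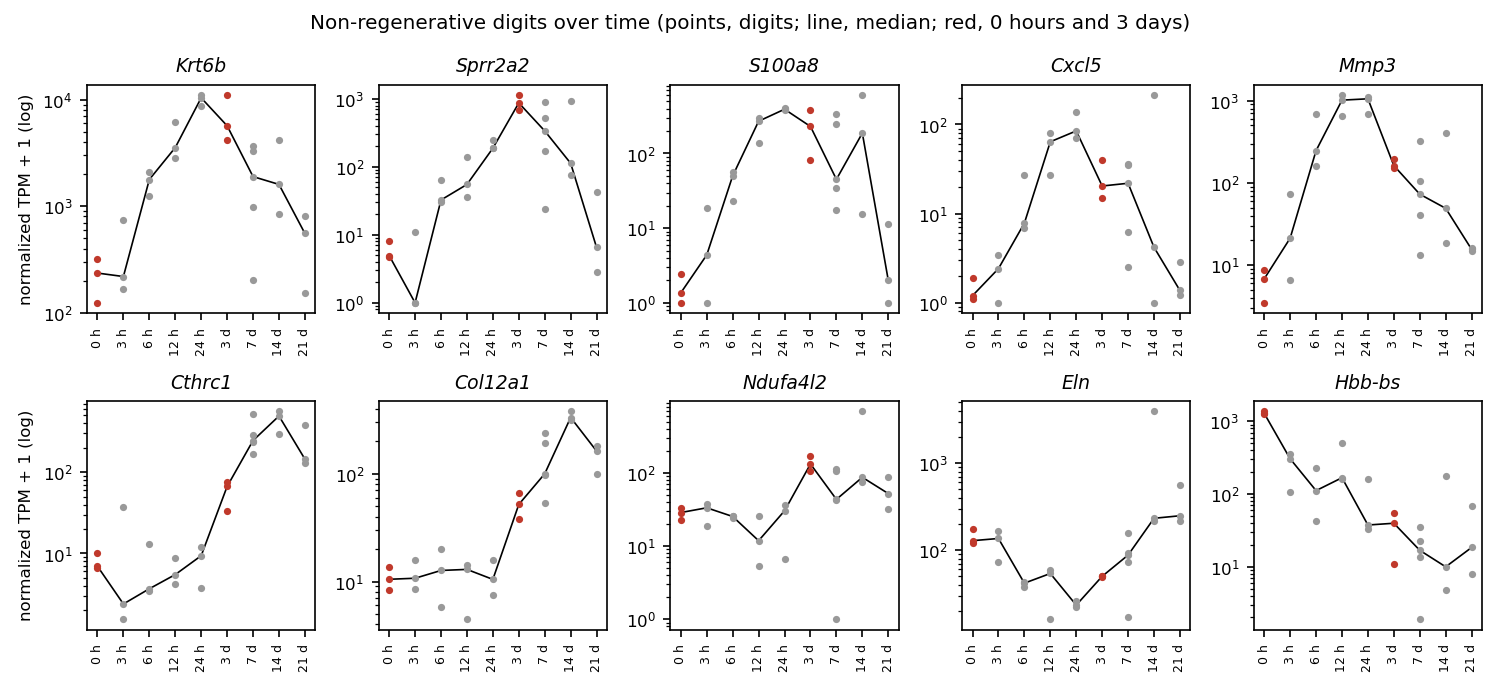
Each panel shows 1 gene over the 9 sampled times in 29 non-regenerative digits, with normalized TPM plus 1 on a log axis, points for digits and a line through the medians. Red points are the 0-hour and 3-day digits, and times are evenly spaced, not to scale. Krt6b, S100a8, Cxcl5 and Mmp3 have their medians at 24 hours above those at 3 days, while Cthrc1 and Col12a1 are higher at 14 days than at 3 days. Normalized TPM summed over all genes was 3362791 in the 77% digit at 14 days, against 836756 and 939809 in the other 14-day digits. It was 1434851 in the 65% digit at 7 days, so levels in these digits are on a larger total.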

How the data were processed

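RNA was sequenced from 50 samples, of which 6 digits carry the main comparison and the 3 digits at 24 hours and 5 at 7 days the neighbouring ones. The authors mapped reads to mouse genes (mm10, CASAVA per the labels) with Bowtie and RSEM 1.2.3 and deposited an expected count per gene without normalization. The authors' second file holds a signal, TPM after a median-by-ratio scaling, here called normalized TPM and used for levels and sums only. Of 21954 genes, 26 names that had become dates were restored from their transcript lists. Macrophage tables and intermediate digits were not used here.

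Expected counts were rounded and tested with edgeR 4.0.16 in R 4.3.3 (filterByExpr, TMM, glmQLFit, glmQLFTest) on the libraries of the 2 times alone, and calls needed both an adjusted p (Benjamini-Hochberg) under 0.05 and a change of over 2-fold between mean normalized counts with 1 added. The study's methods used EBSeq with the same thresholds. Normalized counts are counts scaled to the mean effective library size, and a log2 fold change is edgeR's fitted value with its SE. A gene at 0 in 1 group is given as a bound against a floor of 3 counts in the smallest library of that group, and 1 with 1 to 3 counts as a ratio with an exact 95% counting interval. The test code was also run on simulated counts with known changes, and no result here rests on that run. Coordinates are those of GENCODE M21 matched by Ensembl ID, and promoter letters those of RefSeq (GRCm38.p6). All columns had a sample. Whether the counting used strand is not given in the sources used here, so overlapping genes on either strand may share reads.

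The 51 gene lists, the members and the rule for named genes were chosen with earlier results of these data known. The rule took the 15 largest rises and 15 largest falls among called genes with a mean of at least 50 normalized counts, every called list member, the 2 most abundant members of lists with fewer than 2 calls, and Bmp2. Lists of the last kind are mostly given by counts, and any other gene was picked after its values were seen. The study states 3 mice per time point, but the labels do not tie digits to animals. Replicates differed by more than counting error (chi-square per degree of freedom 10.2 to 80.9 over 6 pairs). Alternatives were RLE size factors, no low-count filter, DESeq2 1.42.0, no fold threshold, the date period as a term, all 29 non-regenerative digits in 1 fit, limma on log2(normalized TPM + 1) with a minimum mean of 1, and leaving out each library. Results of some genes are not reported here.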

Additional observations from a re-analysis of the deposited data

Results flagged for a closer look

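Among the 5 digits at 7 days, 2 of 19 quantities had a digit whose gap to its nearest neighbour exceeded 0.71 of the group's range, where chance flags about 1 group in 20. The 65% digit at 7 days had a mean Spearman correlation of 0.820 with the other 7-day digits. The means of those other digits were 0.901 to 0.915, each including its correlation with the 65% digit. Pairs without the 65% digit ran from 0.916 to 0.948. Hba-a1 was at 1.47 normalized TPM in the 72% digit at 7 days and at 0 in the others.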

How the results depend on the processing

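All 96 called genes kept their direction under every alternative that tested them, and Bmp2 ran from a log2 fold change of -0.19 to 0.03 when 1 library was left out, the latter without the 69% digit at 3 days. Against 0 hours, the calls (higher and lower in brackets) were 175 (132 and 43) with no low-count filter, 450 (306 and 144) with DESeq2, 303 (184 and 119) with the date period as a term and 20 (15 and 5) with all 29 non-regenerative digits in 1 fit, and the last kept 17 of the 96 genes. Limma on normalized TPM called 79, of which 65 were among the 96. Leaving out 1 library gave 43 to 203 calls (37 to 155 higher, 5 to 48 lower). They were 110 (89 and 21) without the first 62% digit, 43 without the second, 50 without the 75% digit, 61 without the 68% digit, 203 without the 69% digit and 43 without the 70% digit, and 39 genes (34 higher, 5 lower) passed in every such fit. The cause of these differences was not tested.

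Against 24 hours, calls were 505 (253 and 252) with no low-count filter, 748 (451 and 297) with DESeq2, 602 (310 and 292) with the date period, 3 (1 and 2) with all 29 digits, 99 (44 and 55) with limma, and 0 to 683 (0 to 369 higher, 0 to 314 lower) without 1 library. For 7 days against 3 days DESeq2 called 13 (11 and 2) and the other alternatives, each left-out library included, called 0. No paired analysis was possible because the digit labels carry no replicate number that ties digits of different times. The smallest library held 3488364 counts, and the filter on low counts left 13286 of 21954 genes tested. No change is claimed for the rest, some of which are named by their levels or enter the summed normalized TPM of a list.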
